A study of Mus musculus with 12 samples.

Results

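The genes described here are the fibroblast growth factor (FGF) ligands, their receptors, and the feedback inhibitors and target genes that FGF signalling is known to induce, 35 genes in all (22 ligand, 5 receptor and 8 feedback or target genes). They were taken by name: each array probe whose design accession mapped to one of these symbols was a member, which gave 53 probes for 34 genes, and Fgf4 had no probe named here. Of these, 30 genes were bright enough to be tested, among 24504 features tested on the array. The study compared mouse cells in 4 groups of 3 single-colour arrays, all labelled epithelial: adult cells of lung and of mammary gland, and cells called reprogrammed lung or reprogrammed mammary. The adult cells came from female mice of 10 weeks, whose organs were minced, digested with trypsin and collagenase A (45 minutes for lung, 30 for mammary) and spun repeatedly at low speed (7 times for lung, 5 for mammary), with no sort by marker stated. Digestion time and spins thus cannot be told apart from organ in the adult comparison. Age, digestion time and number of spins were not assigned to the reprogrammed groups. The protocols shared by all samples go on to embed donor cells in Matrigel, a basement membrane gel, for transplantation, and the series title names stroma-dependent reprogramming in vivo. The sources used here name no strain or allele, and they do not say whether a reprogrammed group is named after its donor organ or after the tissue that formed. Nothing ties the arrays of a group to separate animals, so that p-values measure the spread between arrays, which may be technical.

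FGF ligands are secreted or intracellular proteins. Secreted paracrine members bind tyrosine kinase receptors together with heparan sulphate and switch on the Ras and ERK cascade, which induces the ETS factors Etv4 and Etv5 and the feedback inhibitors of the Sprouty, Spred and dual-specificity phosphatase families. In lung and mammary gland, mesenchymal Fgf10 and Fgf7 act on Fgfr2 in the epithelium, a route needed for lung branching and for formation of the mammary bud.

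Levels are given as log2 of the background-subtracted signal over the 75th percentile of the same array, so that 0 is the 75th percentile. A level of one gene was not set against that of another. Between 71.8% and 77.5% of probes were well above background on 10 arrays, against 89.1% for replicate 4 of adult mammary and 91.1% for replicate 1 of reprogrammed lung, arrays that also had a narrower span of signal (7.11 and 6.10 log2 units between low and high percentiles of the array, against 8.46 to 9.13). All 8 alveolar type II markers were higher in adult lung than in adult mammary and lower in reprogrammed lung than in adult lung, and Nkx2-1, which defines the lung epithelium, was not well above background on any array of reprogrammed lung. The mean level of 9 luminal epithelial markers was 0.41 to 0.90 in adult lung, 3.46 to 3.75 in adult mammary and 3.37 to 3.64 in reprogrammed mammary. In reprogrammed lung it was 3.09 and 3.19 on replicates 3 and 4 but 0.60 on replicate 1. Markers of other cells were present in each group: all 10 fibroblast and all 8 endothelial markers were above background on at least 1 array of every group. Summed over each list, log2 levels of fibroblast markers were 6.75 to 7.28 in adult lung, 7.62 to 8.35 in adult mammary, 7.10 to 8.95 in reprogrammed lung and 7.77 to 8.46 in reprogrammed mammary. The 7.77 was on reprogrammed mammary replicate 2, where the bright marker Col3a1 lacked a value and did not enter the sum. Col3a1 was 6.71 and 6.52 on replicates 1 and 3. Summed log2 levels of endothelial markers were 7.05 to 7.27 in adult lung and 4.35 to 5.63 over the other arrays. In such mixed samples, fewer cells of a type and less RNA per cell cannot be told apart, and the part of other cells in the FGF results was not tested.

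Between adult lung and adult mammary, 9 of the 30 tested genes (30.0%) passed limma's moderated test at an adjusted p of 0.05, where 28.5% of all tested features did. Of these genes 6 were higher in lung (12.5% of all features) and 3 lower (15.9% of all features). Between reprogrammed and adult lung, 9 passed again, where 23.4% of all features did, with 3 higher in reprogrammed lung (14.1% of all features) and 6 lower (9.31%). The median log2 difference over the 30 genes was 0.27 in the first comparison and -0.20 in the second, beside 0.00208 and 0.0986 over all features. Fgf9 is among the genes called in both, although it met the filter only through reprogrammed lung, the group where it was highest. Both comparisons use the same adult lung arrays, so their opposite signs are not independent. No FGF gene passed between reprogrammed and adult mammary, between reprogrammed lung and adult mammary, or between both reprogrammed groups, where limma called 0.00408%, 0.0286% and 0.00816% of all features. At an unadjusted p under 0.05 those counts were 1, 3 and 1 of 30. The adjusted counts were 0 under all 23 alternatives tried.

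**Figure D1:**
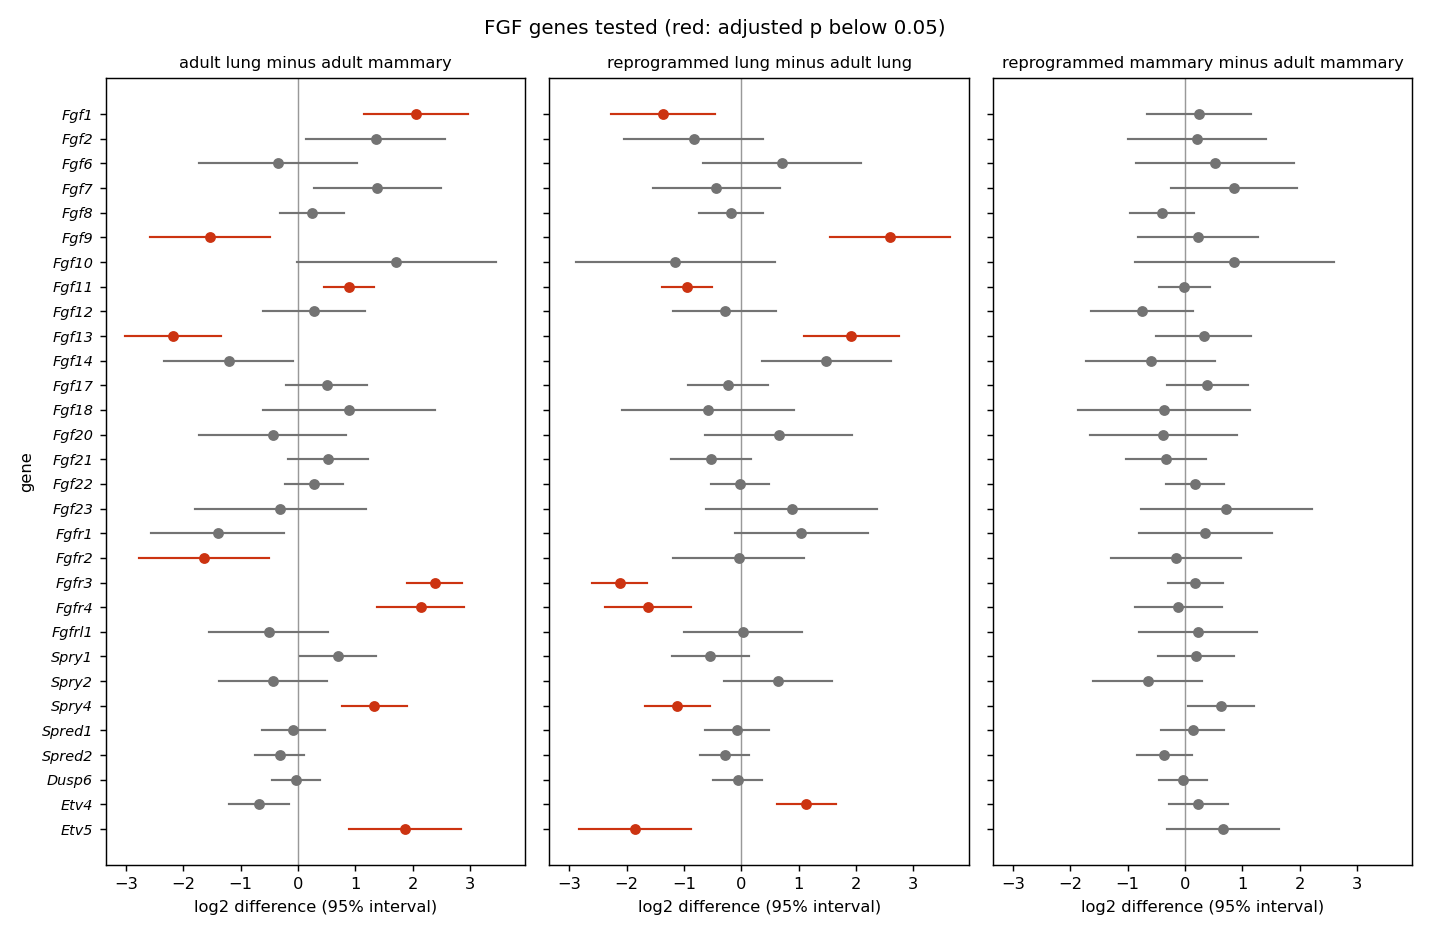
Log2 difference (horizontal axis, with the 95% interval of the fit) of each of the 30 tested FGF genes (vertical axis) in 3 comparisons, with 3 arrays in each group; red marks an adjusted p below 0.05. Fgfr3 and Fgfr4 lie right of 0 in adult lung against adult mammary and left of 0 in reprogrammed against adult lung, while no gene is red in reprogrammed against adult mammary.

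Among the receptors, Fgfr3 and Fgfr4 were higher in adult lung than in adult mammary or reprogrammed lung, whereas Fgfr2 was higher in adult mammary than in adult lung. The promoter windows of these 3 genes are shown because their receptors differed between the adult organs, in opposite directions. They come from RefSeq (GRCm38.p6, 5′ to 3′ on the gene's strand, 300 bases around the annotated start), which held 26 of the 35 genes. Capitals mark matches on either strand to GGGCGG (a GC box, found in 35.7% of the 32851 windows of this length), CACGTG (an E-box, 7.15%) or CCGGAAG (an ETS-type site, 8.86%); neighbouring matches may overlap.
Fgfr3, first start, chr5:33721474-33721773, plus strand: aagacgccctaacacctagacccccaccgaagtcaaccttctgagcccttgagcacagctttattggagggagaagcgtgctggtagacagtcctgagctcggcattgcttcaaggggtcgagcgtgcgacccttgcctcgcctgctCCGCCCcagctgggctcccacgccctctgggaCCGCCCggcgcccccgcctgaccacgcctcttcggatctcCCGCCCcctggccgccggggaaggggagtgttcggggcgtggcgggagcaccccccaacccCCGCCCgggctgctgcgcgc
Fgfr3, further start, chr5:33722056-33722355, plus strand: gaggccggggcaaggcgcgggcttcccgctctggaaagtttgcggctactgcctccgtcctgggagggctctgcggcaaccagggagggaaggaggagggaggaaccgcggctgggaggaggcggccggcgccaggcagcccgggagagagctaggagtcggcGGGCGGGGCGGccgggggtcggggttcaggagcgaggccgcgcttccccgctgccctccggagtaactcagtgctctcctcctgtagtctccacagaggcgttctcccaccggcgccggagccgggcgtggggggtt
Fgfr4, chr13:55152568-55152867, plus strand: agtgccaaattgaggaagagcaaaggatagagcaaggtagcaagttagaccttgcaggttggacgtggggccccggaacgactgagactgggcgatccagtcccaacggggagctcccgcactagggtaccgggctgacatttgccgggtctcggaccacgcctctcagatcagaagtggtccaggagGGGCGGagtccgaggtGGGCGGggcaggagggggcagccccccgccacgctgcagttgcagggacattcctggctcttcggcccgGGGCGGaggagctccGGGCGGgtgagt
Fgfr2, chr7:130266759-130267058, minus strand: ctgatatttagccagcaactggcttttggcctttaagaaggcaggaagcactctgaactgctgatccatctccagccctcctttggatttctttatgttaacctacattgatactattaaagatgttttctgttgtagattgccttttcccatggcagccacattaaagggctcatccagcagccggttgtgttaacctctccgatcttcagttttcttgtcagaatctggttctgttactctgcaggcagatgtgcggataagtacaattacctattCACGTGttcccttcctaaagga

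The Fgfr3 windows held 4 and 2 GC boxes and the Fgfr4 window 4, while the Fgfr2 window held none and 1 E-box. The ETS-type letters were in none of these windows. GC content was 69.7% and 73.0% for Fgfr3, 65.3% for Fgfr4 and 43.7% for Fgfr2. These matches describe the letters only, and binding was not measured.

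Fgfr3, a receptor known as a brake on bone growth, stood at 2.43, 2.20 and 2.01 on the adult lung arrays, 0.23, -0.25 and -0.50 in adult mammary, -0.16, 0.32 and 0.12 in reprogrammed lung, and 0.08, -0.10 and 0.06 in reprogrammed mammary. Every adult lung array lay above all 9 others, which overlapped one another. Fgfr3 was 5.23-fold higher in adult lung than in adult mammary (log2 2.39 ± 0.22 SE, adjusted p = 5.14e-05, n = 3 per group) and 4.35-fold lower in reprogrammed than in adult lung (log2 -2.12 ± 0.22 SE, adjusted p = 0.000126). On the 3 slides that carried both lung groups, the second difference was -2.11, -2.17 and -2.08. On the 1 slide with both adult groups the first difference was 2.68. The other Fgfr3 probes gave 1.87 and 2.34 between the adult organs and -1.55 and -1.95 between the lung groups. Fgfr3 kept these calls under every alternative tried.

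Fgfr4, a receptor that also serves endocrine FGFs in liver, stood at -0.47, -0.36 and -0.41 in adult lung, -2.90, -2.91 and -1.87 in adult mammary, -1.29, -2.45 and -2.38 in reprogrammed lung, and -2.75, -2.61 and -2.67 in reprogrammed mammary. Again all 3 adult lung arrays were above the other 9, and the arrays of narrower span were the highest of their groups. Fgfr4 was 4.42-fold higher in adult lung than in adult mammary (log2 2.14 ± 0.34 SE, adjusted p = 0.00122, n = 3 per group) and 3.09-fold lower in reprogrammed than in adult lung (log2 -1.63 ± 0.34 SE, adjusted p = 0.0064). Within slides the latter difference was -1.98, -0.88 and -2.03, and the former 2.44 on the 1 slide that allows it. Both calls held under every alternative tried.

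Fgfr2, the epithelial receptor of Fgf7 and Fgf10, stood at 1.57, 1.88 and 1.88 in adult lung, 3.83, 2.97 and 3.43 in adult mammary, 0.30, 2.12 and 2.76 in reprogrammed lung, and 3.07, 3.13 and 3.58 in reprogrammed mammary. By the probe used, all mammary arrays of either kind were above all lung arrays of either kind. On another Fgfr2 probe, reprogrammed lung replicate 4 (-0.04) was above adult mammary replicate 2 (-0.09). Fgfr2 was 3.11-fold lower in adult lung than in adult mammary (log2 -1.63 ± 0.51 SE, adjusted p = 0.0365, n = 3 per group), and its other probes gave -1.42 and -1.46. The call depended on single arrays: leaving out any 1 of the 6 adult arrays, or replicate 1 or 2 of reprogrammed mammary, gave log2 values of -1.86 to -1.42 and adjusted p of 0.0514 to 0.109, and a fixed slide block gave -1.10 (adjusted p = 0.306). Within the shared slide the adult difference was -1.40. Reprogrammed lung and adult lung differed by -0.05 (95% interval of -1.18 to 1.09, adjusted p = 0.96). Reprogrammed lung differed from adult mammary by -1.68 (adjusted p = 0.279) and from reprogrammed mammary by -1.53 (adjusted p = 0.408), and neither passed the test.

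Fgfr1, a receptor widely expressed in mesenchyme, stood at 3.21, 3.30 and 3.00 in adult lung, 4.88, 4.48 and 4.35 in adult mammary, 2.67, 4.76 and 5.22 in reprogrammed lung, and 5.02, 4.68 and 5.07 in reprogrammed mammary. Reprogrammed lung replicate 1 lay below every adult lung array, and the other 2 reprogrammed lung arrays lay in or above the adult mammary range. The adult difference of -1.40 and the lung difference of 1.05 missed the threshold (adjusted p = 0.0695 and 0.185). Without reprogrammed lung replicate 1 both passed (log2 -1.40, adjusted p = 0.000589, and 1.82, adjusted p = 0.000395), and without reprogrammed lung replicate 4 the adult difference did (adjusted p = 0.0359). Without both arrays of narrower span, both differences passed too (-1.51, adjusted p = 0.00105, and 1.82, adjusted p = 0.000472). A fit of only the groups compared (adjusted p = 0.00295), the authors' values (0.0325) and normexp background correction (0.041) also called the adult difference. The 3 probes gave -1.40, -1.57 and -1.33 between the adult organs.

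Fgfrl1, a receptor-like protein without a kinase domain, stood at 0.23 to 0.29 in adult lung, 0.72 to 0.86 in adult mammary, -1.06 to 1.22 in reprogrammed lung and 0.59 to 1.22 in reprogrammed mammary. It passed in no comparison, and reprogrammed lung replicate 1 was its lowest array. On that array Fgfr1, Fgfr2 and Fgfrl1 were all at their lowest of the 12 arrays by the probes used, although a further Fgfr1 probe (-0.10) was above its adult lung range of -0.56 to -0.44. Luminal marker levels were lower there than on the other reprogrammed lung arrays. The mean of 6 B cell markers was 2.93 there, against -3.44 and -3.16 on replicates 3 and 4, and that of 7 T and NK cell markers 1.29, against -3.70 and -2.47. The other array of narrower span, in adult mammary, had means of -0.20 and 0.87, above the other adult mammary arrays (-3.76 to -3.46 and -3.62 to -3.51). Reprogrammed mammary replicate 2, which was not of narrower span, had means of 0.453 and 1.196, higher still. Its levels of Fgfr1 (4.68), Fgfr2 (3.13) and Fgfrl1 (0.59) were above every adult lung array. Those of Fgfr1 and Fgfrl1 were the lowest of its group. The part of the narrower span and marker levels of reprogrammed lung replicate 1 in its receptor levels was not tested.

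**Figure D2:**
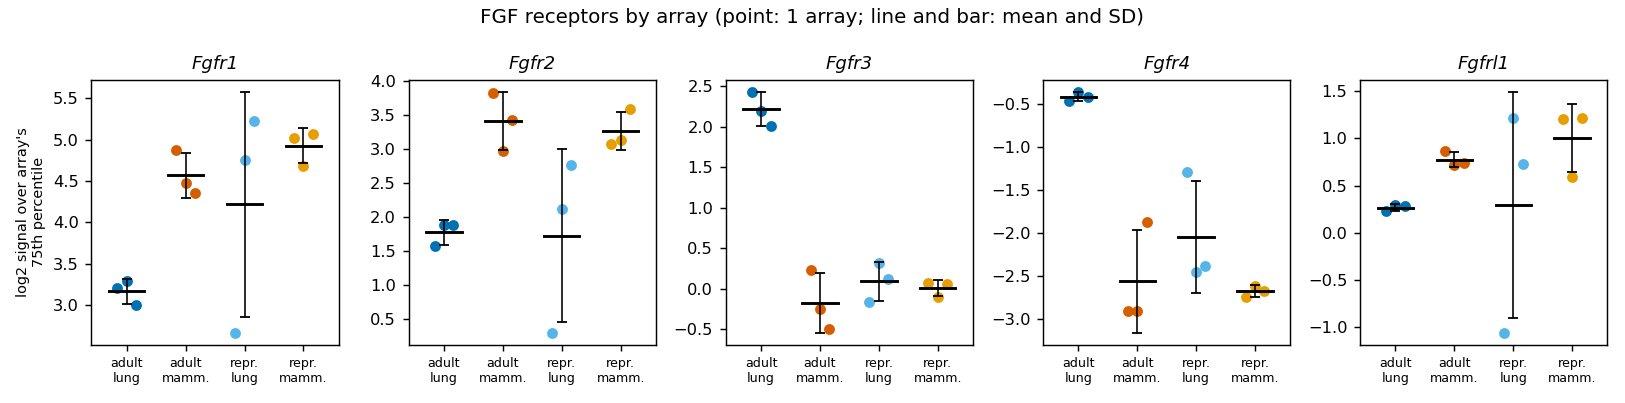
Level of 5 FGF receptor genes (vertical axis, log2 signal over the array's 75th percentile) in the 4 groups (horizontal axis); each point is 1 array, and the line and bar are the mean and SD of 3 arrays. Adult lung is apart from the other groups for Fgfr3 and Fgfr4, and 1 reprogrammed lung array is the lowest for Fgfr1, Fgfr2 and Fgfrl1.

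Among the secreted ligands, Fgf1 alone was called higher in adult lung than in adult mammary, and Fgf9 was called lower. Fgf1, an acidic FGF that binds every FGF receptor, stood at 0.55, 1.41 and 1.35 in adult lung, -1.71, -0.75 and -0.44 in adult mammary, -1.03, -0.09 and 0.32 in reprogrammed lung, and -0.82, -0.82 and -0.50 in reprogrammed mammary. The adult lung arrays were above the 9 others, though replicate 1 only narrowly so. Fgf1 was 4.19-fold higher in adult lung than in adult mammary (log2 2.07 ± 0.41 SE, adjusted p = 0.00402, n = 3 per group; 1.30 within the shared slide), a call that a fixed slide block ended (2.08, adjusted p = 0.055). It was 2.58-fold lower in reprogrammed than in adult lung (log2 -1.37 ± 0.41 SE, adjusted p = 0.0346), with -0.63, -2.37 and -1.09 within slides. The second call was lost without adult lung replicate 2 or 3, reprogrammed lung replicate 1 or 3, or reprogrammed mammary replicate 1 or 2 (differences of -1.46 to -0.99 with adjusted p = 0.0502 to 0.119). It was also lost with a fixed slide block, only the lung groups in the fit or no filter (-1.37, adjusted p = 0.069, 0.0913 and 0.0544). A further Fgf1 probe gave 2.54 and -1.79 for these differences.

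Fgf9, a ligand of embryonic lung epithelium and mesothelium, was dim. It stood at -5.42, -6.12 and -7.23 in adult lung, where no array was above background, and at -4.67, -5.26 and -4.23 in adult mammary (2 of 3 above). It stood at -3.05, -3.91 and -4.04 in reprogrammed lung, all above background, and at -4.83, -4.68 and -3.97 in reprogrammed mammary (2 of 3 above). It was tested only because all 3 reprogrammed lung arrays were above background, so its calls are given as a description. With the main processing, and against the lowest signal marked above background on the adult lung arrays, Fgf9 was 2.46-fold higher in reprogrammed than in adult lung (fitted log2 2.59 ± 0.47 SE, adjusted p = 0.00296, n = 3 per group). Within slides that difference was 1.51, 4.19 and 2.08, and with the authors' values it was 0.73 (adjusted p = 0.0147). Against the same signals, Fgf9 was 1.18-fold higher in adult mammary than in adult lung (fitted log2 -1.54, adjusted p = 0.0331), with -0.16 within the shared slide. Adult mammary replicate 2 was itself not above background, so 1.18 is no lower bound. Normexp background correction turned the signs of both fitted differences (log2 -0.29, adjusted p = 0.674, and 0.78, adjusted p = 0.173). The adult call was also lost when replicate 2 or 3 of adult lung, or replicate 1 or 4 of adult mammary, was left out (values of -1.61 to -1.05, adjusted p = 0.0723 to 0.111). The authors' values gave -0.37 for it (adjusted p = 0.165), quantile normalization -1.11 (0.0687), a fixed slide block -1.06 (0.351), and only the adult groups in the fit or no filter -1.54 (0.0562 and 0.053).

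The mesenchymal ligands Fgf2, Fgf7 and Fgf10 were all above the adult mammary range in adult lung, yet missed the threshold. Fgf10, the branching factor of lung mesenchyme, stood at -0.92, -1.47 and -1.44 in adult lung, -2.98, -3.26 and -2.76 in adult mammary, -2.83, -4.30 and -0.18 in reprogrammed lung, and -2.39, -2.31 and -1.72 in reprogrammed mammary. Fgf7, the keratinocyte growth factor, stood at 1.58, 1.33 and 1.40 in adult lung, 0.51, 0.04 and -0.39 in adult mammary, 0.40, 0.21 and 2.38 in reprogrammed lung, and 0.46, 1.15 and 1.12 in reprogrammed mammary. Fgf2, a basic FGF held in the matrix, stood at -0.77, -0.26 and -0.52 in adult lung, -1.60, -1.97 and -2.06 in adult mammary, -1.91, -2.42 and 0.27 in reprogrammed lung, and -1.74, -1.69 and -1.57 in reprogrammed mammary. By these probes, reprogrammed lung replicate 4 was for all 3 ligands the highest of the 12 arrays, whereas replicates 1 and 3 lay below every adult lung array.

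Between adult lung and adult mammary the differences were 1.72 for Fgf10 (adjusted p = 0.129), 1.39 for Fgf7 (adjusted p = 0.0614) and 1.36 for Fgf2 (adjusted p = 0.089). Fitted without reprogrammed lung replicate 4, whose spread enters the pooled error, all 3 passed with the same differences (adjusted p = 0.00664, 0.00371 and 0.00121). Without reprogrammed lung replicate 3 they passed too (0.0435, 0.0469 and 0.0492), and without replicate 1 Fgf7 did (0.0466). With only the adult groups in the fit, adjusted p was 0.00258, 0.00794 and 0.00432, and the authors' values called Fgf7 (1.27, adjusted p = 0.0494). Reprogrammed lung differed from adult lung by -1.15 for Fgf10, -0.44 for Fgf7 and -0.83 for Fgf2, none past the threshold (adjusted p = 0.337, 0.591 and 0.316). Without replicate 4 the Fgf10 difference was -2.28 (adjusted p = 0.00358). Within slides it was -3.37, -1.39 and 1.30. Another Fgf2 probe gave 0.28 between the adult organs against 1.36, and 0.18 between the lung groups against -0.83. On that probe replicate 1 of reprogrammed lung was the highest array (-1.10) and replicate 4 was at -2.48, so the Fgf2 pattern was not shared by its probes.

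Fgf18, a ligand of alveolar and skeletal growth, had its highest level on the same reprogrammed lung array (0.85, against -0.97 and -2.20 on replicates 1 and 3) and passed in no comparison. The mean level of 10 fibroblast markers was 4.35 on reprogrammed lung replicate 4, the highest of the 12 arrays, and 2.44 and 2.15 on replicates 1 and 3. In adult lung it was 1.85 to 2.75 and in adult mammary 2.82 to 3.44, and 2 of the 10 markers were called higher and 3 lower in adult lung. Pdgfra, a growth factor receptor of fibroblasts, was 5.13 to 5.50 in adult lung and 2.65 to 3.28 in adult mammary, while Dcn, a matrix proteoglycan, was 0.67 to 2.28 and 4.63 to 5.62. The mean of 4 airway secretory markers was also higher on reprogrammed lung replicate 4 (0.48) than on replicates 1 and 3 (-2.20 and -2.59), and was 4.35 to 5.52 in adult lung. The part of these markers in the ligand levels was not tested.

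**Figure D3:**
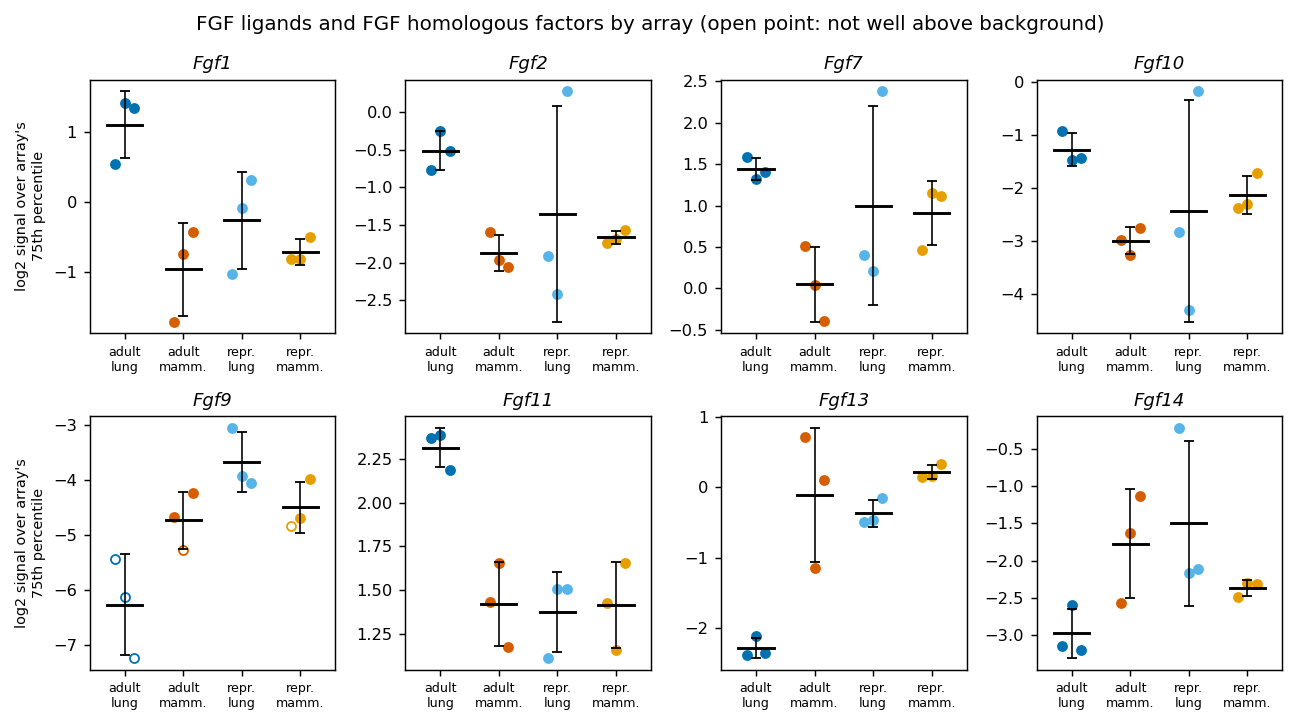
Level of 8 FGF genes (vertical axis, log2 signal over the array's 75th percentile) in the 4 groups (horizontal axis); points are arrays (open where not well above background), and the line and bar are the mean and SD of 3 arrays. One reprogrammed lung array is the highest of all for Fgf2 (by the probe shown), Fgf7 and Fgf10, and Fgf13 is lowest in adult lung.

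Fgf11, Fgf12, Fgf13 and Fgf14 encode the FGF homologous factors, which stay inside the cell and are known for binding voltage-gated sodium channels rather than for activating receptors in the classical way. Of these, Fgf13 was lower and Fgf11 higher in adult lung than in adult mammary. Fgf13 stood at -2.39, -2.12 and -2.36 in adult lung, 0.73, -1.15 and 0.10 in adult mammary, -0.49, -0.47 and -0.15 in reprogrammed lung, and 0.15, 0.17 and 0.34 in reprogrammed mammary. All adult lung arrays lay below all others. Fgf13 was 4.54-fold lower in adult lung than in adult mammary (log2 -2.18 ± 0.38 SE, adjusted p = 0.00192, n = 3 per group; -1.24 within the shared slide). It was 3.79-fold higher in reprogrammed than in adult lung (log2 1.92 ± 0.38 SE, adjusted p = 0.00451), with 1.92, 1.86 and 1.98 within slides. Its other probes, dim on all adult lung arrays, gave fitted differences of 3.10 and 3.14 between the lung groups. Normexp background correction gave -1.17 (adjusted p = 0.0499) for the adult difference and 0.99 (adjusted p = 0.131) for the lung difference.

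Fgf11 stood at 2.37, 2.39 and 2.19 in adult lung, 1.43, 1.65 and 1.17 in adult mammary, 1.11, 1.50 and 1.51 in reprogrammed lung, and 1.43, 1.16 and 1.65 in reprogrammed mammary. Adult lung was again above all 9 others, by a small margin on the log2 scale. Fgf11 was 1.86-fold higher in adult lung than in adult mammary (log2 0.90 ± 0.20 SE, adjusted p = 0.00712, n = 3 per group; 0.72 within the shared slide), a call that a fixed slide block ended (1.03, adjusted p = 0.0666). It was 1.92-fold lower in reprogrammed than in adult lung (log2 -0.94 ± 0.20 SE, adjusted p = 0.00633; -0.87, -1.08 and -0.88 within slides).

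Fgf14 stood at -3.15, -2.60 and -3.20 in adult lung, -2.57, -1.62 and -1.13 in adult mammary, -0.21, -2.16 and -2.11 in reprogrammed lung, and -2.49, -2.30 and -2.31 in reprogrammed mammary. By the probe used, the 2 highest arrays, reprogrammed lung replicate 1 and adult mammary replicate 4, were those of narrower span. The differences of -1.21 between the adult organs and 1.48 between the lung groups missed the threshold (adjusted p = 0.104 and 0.0597). The first passed without reprogrammed lung replicate 1 (-1.21, adjusted p = 0.0164), and without both narrow arrays it was -0.88 (adjusted p = 0.0409). The second passed without adult mammary replicate 1 (1.48, adjusted p = 0.0492) or reprogrammed lung replicate 3 or 4 (1.82 and 1.79, adjusted p = 0.0441 and 0.0415). Quantile normalization called it too (1.46, adjusted p = 0.0475). The mean of the gene's probes called both differences (-1.32 and 1.45, adjusted p = 0.0497 and 0.0398). A further Fgf14 probe, above background on every array, gave -1.43 and 1.41. On that probe adult mammary replicate 2 (-1.90) and reprogrammed lung replicate 3 (-2.29) were the highest arrays. Fgf12 passed in no comparison.

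The other tested ligands were Fgf6, Fgf8, Fgf17, Fgf20, Fgf21, Fgf22 and Fgf23, and none passed in any comparison. Fgf8, an organiser of the embryonic brain and limb, was at 1.96 to 2.13 in adult lung, 1.46 to 1.98 in adult mammary, 1.31 to 2.33 in reprogrammed lung and 1.21 to 1.54 in reprogrammed mammary, and its adult difference was 0.25 (95% interval of -0.31 to 0.81). Fgf3, Fgf5, Fgf15 and Fgf16 were too dim to test. Fgf5 was above background on no array, and none of the 4 was above background on any adult lung array.

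Among the feedback inhibitors and targets, Etv5 and Spry4 were higher in adult lung, Etv4 was higher in reprogrammed than in adult lung, and Dusp6 passed in no comparison. Etv5, an ETS factor that FGF signalling induces and alveolar type II cells express, stood at 1.71, 1.68 and 1.61 in adult lung, -1.17, 0.13 and 0.45 in adult mammary, -0.81, 0.64 and -0.38 in reprogrammed lung, and 0.49, 0.78 and 0.14 in reprogrammed mammary. The adult lung arrays were close together and above the 9 others. Etv5 was 3.64-fold higher in adult lung than in adult mammary (log2 1.87 ± 0.44 SE, adjusted p = 0.0104, n = 3 per group; 1.58 within the shared slide), a call that a fixed slide block ended (1.78, adjusted p = 0.0919). It was 3.61-fold lower in reprogrammed than in adult lung (log2 -1.85 ± 0.44 SE, adjusted p = 0.0124; -1.07, -2.43 and -2.06 within slides).

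Etv4, the close relative of Etv5, stood at -1.94, -1.65 and -1.97 in adult lung, -1.21, -1.46 and -0.87 in adult mammary, -0.31, -0.87 and -0.98 in reprogrammed lung, and -0.96, -0.69 and -1.18 in reprogrammed mammary. Adult lung was the lowest group with no overlap, the reverse of Etv5. Etv4 was 2.19-fold higher in reprogrammed than in adult lung (log2 1.13 ± 0.23 SE, adjusted p = 0.00596, n = 3 per group; 1.07, 1.66 and 0.67 within slides), whereas its adult difference of -0.68 missed the threshold (adjusted p = 0.0533). Normexp background correction ended the lung call (0.55, adjusted p = 0.217).

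Spry4, a Sprouty inhibitor of the Ras and ERK cascade, stood at -3.01, -2.79 and -3.09 in adult lung, -4.32, -4.32 and -4.27 in adult mammary, -3.40, -4.32 and -4.52 in reprogrammed lung, and -3.55, -3.77 and -3.69 in reprogrammed mammary. Adult lung was above all other arrays, and reprogrammed mammary lay wholly above adult mammary. Spry4 was 2.52-fold higher in adult lung than in adult mammary (log2 1.34 ± 0.26 SE, adjusted p = 0.00353, n = 3 per group; 1.30 within the shared slide), a call that a fixed slide block ended (1.26, adjusted p = 0.081) and that was smaller with the authors' values (0.76, adjusted p = 0.00703). It was 2.17-fold lower in reprogrammed than in adult lung (log2 -1.12 ± 0.26 SE, adjusted p = 0.0103; -1.31, -0.31 and -1.73 within slides). The latter call was lost with normexp (-0.90, adjusted p = 0.0799) and with only the lung groups in the fit (-1.12, adjusted p = 0.0836). The difference of 0.63 between reprogrammed and adult mammary did not pass (adjusted p = 0.456), and a further probe had the other sign there (-0.31).

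Dusp6, the ERK phosphatase that FGF signalling induces, stood at 3.57 to 3.93 in adult lung, 3.51 to 4.11 in adult mammary, 3.63 to 3.81 in reprogrammed lung and 3.66 to 3.96 in reprogrammed mammary. All 4 groups overlapped. Its adult difference was -0.03 (95% interval of -0.45 to 0.39) and its lung difference -0.07 (95% interval of -0.49 to 0.35). Spry1, Spry2, Spred1 and Spred2, further inhibitors of the cascade, passed in no comparison. The Spry2 probes disagreed in size between the adult organs (-0.43 and -1.06). They had opposite signs between reprogrammed and adult mammary (-0.65 and 0.16) and between reprogrammed lung and reprogrammed mammary (0.86 and -0.24). The value of Spred2 on reprogrammed mammary replicate 3 was an outlier spot and was left out.

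**Figure D4:**
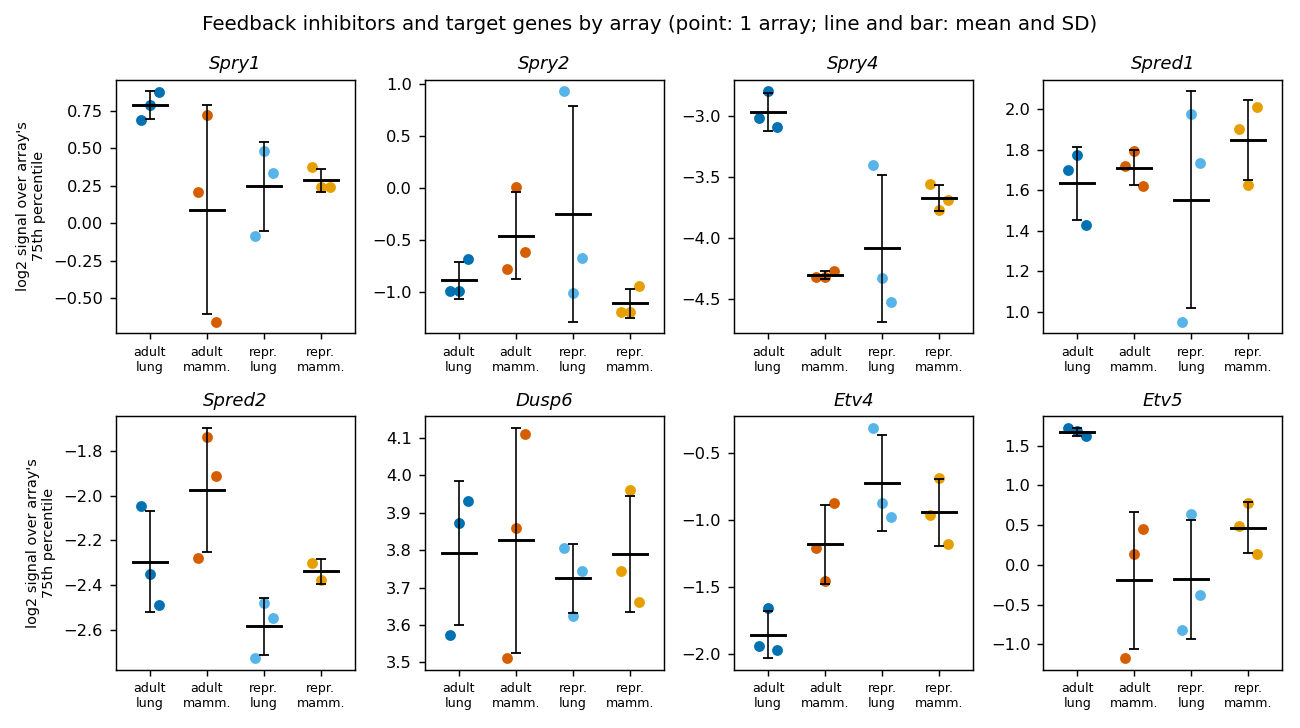
Level of 8 feedback and target genes (vertical axis, log2 signal over the array's 75th percentile) in the 4 groups (horizontal axis); each point is 1 array, and the line and bar are the mean and SD. Adult lung is highest for Etv5 and Spry4 and lowest for Etv4, while the Dusp6 arrays all lie between 3.51 and 4.11.

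The change from adult to reprogrammed cells was set against the organ name in an interaction term, whose 2 arms share no array. It passed for 4 of the 30 genes, where 12.8% of all features passed, with 3 lower (5.39% of all features) and 1 higher (7.41%). Fgfr3 changed by -2.12 in lung and 0.18 in mammary, a difference of -2.30 (adjusted p = 0.00156). Etv5 changed by -1.85 and 0.66 (difference -2.52, adjusted p = 0.0263), Spry4 by -1.12 and 0.63 (difference -1.75, adjusted p = 0.0126) and Fgf9 by a fitted 2.59 and 0.23 (difference 2.36, adjusted p = 0.0427). The Fgf9 value rests on adult lung signals that were not well above background and is no measured size, and Fgf9 met the filter only through reprogrammed lung. For Fgfr4 the difference of -1.51 missed the threshold (adjusted p = 0.0675) and passed without reprogrammed lung replicate 1 (-1.89, adjusted p = 0.00838) or adult mammary replicate 4 (-1.86, adjusted p = 0.0249). The count was 8 without reprogrammed lung replicate 4. It was 2 without adult lung replicate 2 or 3, or without reprogrammed mammary replicate 1 or 2.

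Reprogrammed lung was also set against adult mammary, where no FGF gene passed. There Fgfr3 differed by 0.27 (95% interval of -0.21 to 0.75) and Fgfr4 by 0.52 (95% interval of -0.24 to 1.27). Etv5 differed by 0.01 (95% interval of -0.97 to 0.99). The differences of 2.39, 2.14 and 1.87 between the adult organs lie outside these intervals, but they have errors of their own and use the same adult mammary arrays. Setting one against the other is the comparison of reprogrammed with adult lung, called for these genes (log2 -2.12, -1.63 and -1.85). Of other genes called between the adult organs, Fgf1 differed from adult mammary by 0.70, Fgf11 by -0.05, Fgf13 by -0.26 and Spry4 by 0.22. Fgfr2 had the largest difference from adult mammary, -1.68 (95% interval of -2.82 to -0.55), and Fgf9 the next, 1.06, and both missed the threshold after adjustment.

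Further genes of the pathway came from 3 lists, chosen with earlier results of these data known, so that their shares are a description. Of 25 tested co-receptor and heparan sulphate genes, 4 were higher and 6 lower in adult lung than in adult mammary, and 6 rose and 4 fell in reprogrammed against adult lung, with medians of -0.11 and 0.10. These are 40% of the list in each comparison, where 28.5% and 23.4% of all features passed and the medians over all features were 0.00208 and 0.0986. Sulf2, which trims sulphate from heparan sulphate and so changes FGF binding, was lower in adult lung than in adult mammary (log2 -2.28, adjusted p = 0.00261) and higher in reprogrammed than in adult lung (2.69, adjusted p = 0.00122). The glypican Gpc6 followed the same signs (-2.31 and 2.27), and Hs6st2, a sulphotransferase, was lower in adult lung (-1.59). Sulf1, the relative of Sulf2, was higher in reprogrammed than in adult lung (1.59). The syndecan Sdc3 (1.83 and -1.61) and the sulphotransferase Ndst1 (1.21 and -1.56) had the opposite signs. Fgfbp1, a carrier of secreted FGFs, was higher in adult lung (1.12), and Hs2st1, another sulphotransferase, lower in reprogrammed than in adult lung (-1.51).

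Of 25 tested receptor adaptor and cascade genes, 4 were higher and 0 lower in adult lung than in adult mammary, and 0 rose and 5 fell in reprogrammed against adult lung, with medians of 0.07 and -0.13. These are 16% and 20% of the list, against 28.5% and 23.4% of all features. Plcg1, the phospholipase recruited by FGF receptors, led both (log2 1.67, adjusted p = 0.000273, and -1.53, adjusted p = 0.000501). Mapk3, which encodes an ERK kinase, followed (1.38 and -1.27). Pik3ca, a catalytic kinase subunit, was lower in reprogrammed than in adult lung (-1.09).

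Of 21 tested further feedback and target genes, 10 were higher and 6 lower in adult lung than in adult mammary, and 5 rose and 7 fell in reprogrammed against adult lung, with medians of 0.95 and -0.48. These are 76.2% and 57.1% of the list, against 28.5% and 23.4% of all features. The list was chosen with earlier results known and no test set it against other genes, so these shares are a description. Many of these respond to other pathways as well. Myc, the growth-promoting transcription factor, was lower in adult lung than in adult mammary (log2 -3.25, adjusted p = 9.48e-06) and higher in reprogrammed than in adult lung (3.63, adjusted p = 7.06e-06). Fosl1, an AP-1 subunit (-2.62 and 1.82), and Phlda1 (-2.29 and 1.67) had the same signs. Nkd1, an inhibitor of Wnt signalling, was higher in adult lung (3.12) and lower in reprogrammed lung (-2.88). Tbx3, a T-box factor of the mammary bud, stood at 2.18 and -3.01. The hedgehog ligand Shh stood at 4.73 and -3.46, with Shh above background on only 1 array of the lower group in each. Its means there were -6.56 in adult mammary and -5.30 in reprogrammed lung, so the Shh differences are fitted values and no measured sizes. Shh could not meet the filter through either of these lower groups. In the other 3 pairwise comparisons no gene of the 3 lists passed limma's test. Unadjusted p was under 0.05 for 3, 1 and 2 genes of the lists in their order in reprogrammed against adult mammary, 3, 4 and 3 in reprogrammed lung against adult mammary, and 2, 3 and 6 between the reprogrammed groups.

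In the interaction term, which asks whether the change from adult to reprogrammed cells differed by organ name, 4 of 25, 2 of 25 and 7 of 21 genes of the lists passed (16%, 8% and 33.3%), where 12.8% of all features did. Myc (3.90), Phlda1 (2.28), Gpc6 (2.26) and Sulf2 (2.11) had positive differences. Nkd1 (-3.41), Tbx3 (-3.40), the ERK phosphatase Dusp7 (-1.89), Mapk3 (-1.55), Sdc3 (-1.54), Ndst1 (-1.48) and Plcg1 (-1.29) had negative ones.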

How the data were processed

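Total RNA of 12 samples was amplified, labelled with Cy3 and hybridised to single-colour Agilent arrays, per the labels and the file headers. The authors deposited scanner files whose processed signal is an intensity after background subtraction and detrending, with no scaling between arrays, per the file headers (Feature Extraction 10.5.1.1, whereas the submitters' processing notes name 10.1). The raw median spot signal and local background are deposited intensities too. The authors' series matrix holds log2 values with medians of 6.78 to 6.79 on every array, so they were brought to a common level. Their centring between arrays and background treatment are not given in the sources used here.

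Control spots and outlier spots (91 to 280 per array) were left out and spots of a probe averaged as log2. Main values were the processed signal on the log2 scale less the 75th percentile of its array, which was 293.8 to 608.5 in signal units. No spot was saturated. Accessions were matched to RefSeq, naming 24844 of 41174 probes. The probe with the highest mean stood for a gene. Features above background on all 3 arrays of at least 1 group were tested (24504, of which 308 lacked a value on some array). limma 3.58.1 in R 4.3.3 fitted a mean per group over all 12 arrays (8 residual and 2.37 prior degrees of freedom), with two-sided p adjusted by Benjamini-Hochberg over all tested features, and was tested on simulated data. A fold whose lower group was nowhere above background was taken against the lowest signal above background on those arrays. It holds for the main values only. The number of arrays limits the precision. The slide, scanned once each and read from the barcode in the file headers, was taken as the batch: 5 slides held 2 or 3 arrays of different groups. Members with an adjusted p under 0.05, or a 2-fold difference between groups, were given by array, and of each further list the 3 largest called differences in each direction were named, except for a result that is not reported here. The FGF genes and lists were chosen with earlier results of these data known. The alternatives were the authors' values, normexp (offset 50, on the median signal), quantile scaling, other filters, slide and replicate blocks, fewer groups, probe means and left-out arrays.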

Additional observations from a re-analysis of the deposited data

Results flagged for a closer look

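For 4 FGF genes the change from adult to reprogrammed cells differed between the lung-named and the mammary-named groups, by limma's interaction term over 12 arrays (3 per group, Benjamini-Hochberg adjusted over all tested features). These are 13.3% of the 30 tested, where 12.8% of all features passed, so the count was near the share of the array. The difference was -2.30 on the log2 scale for Fgfr3 (adjusted p = 0.00156), -2.52 for Etv5 (adjusted p = 0.0263), -1.75 for Spry4 (adjusted p = 0.0126) and 2.36 for Fgf9 (adjusted p = 0.0427). The Fgfr3 call held under every alternative tried. The Etv5 call was lost without any 1 adult lung array or without reprogrammed mammary replicate 1 or 2 (adjusted p = 0.0541 to 0.066), with a fixed slide block (-2.65, adjusted p = 0.0681) and with normexp (-1.96, adjusted p = 0.0584). Fgf9 was above background on no adult lung array, so that 2.36 is a fitted value and no measured size, and it met the filter only through reprogrammed lung, where it was highest. Its call was lost under 15 of the alternatives and its sign turned under 1, normexp background correction. The Spry4 call was lost with normexp (-1.13, adjusted p = 0.187), a fixed slide block (-1.76, adjusted p = 0.0697) and the mean of its probes (-1.16, adjusted p = 0.055).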

How the results depend on the processing

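Of 22 called differences of single genes, 8 kept their call under all alternatives tried: Fgfr3 in 3 comparisons, Fgfr4 between the adult organs and between the lung groups, Fgf13 between the adult organs, and Fgf11 and Etv5 between the lung groups. Between adult lung and adult mammary the count of called FGF genes went from 9 to 3 with the slide as a fixed block and to 14 with only the groups compared, and leaving out 1 array gave 7 to 14 (14 without reprogrammed lung replicate 4). Over all features, that comparison had 2702 calls with the fixed slide block, against 6978 in the main fit and 6910 with the slide as a random block. The random block (correlation of -0.0263) ended none of the 22 calls. Between reprogrammed and adult lung the count went from 9 to 5 with normexp background correction, and leaving out 1 array gave 8 to 13. For the interaction the count went from 4 to 1 with normexp, 1 with the slide as a fixed block and 2 with the replicate block, and leaving out 1 array gave 2 to 8. Normexp turned the sign of Fgf9, to 0.78 between the adult organs, -0.29 between the lung groups and -0.43 for the interaction. It shifted the median over all features from 0.00208 to 0.34, from 0.0986 to -0.20 and from 0.0717 to -0.25 in these comparisons, and the share of calls that were higher from 44.0% to 60.9%, from 60.2% to 39.7% and from 57.9% to 34.3%. With the authors' values the last 2 shares were 47.5% and 44.0%, and with quantile normalization 47.2% for the interaction. The counts in the other 3 comparisons were 0 under every alternative. The labels repeat replicate numbers across groups, but deviations of same-numbered arrays correlated at -0.53 to 0.332 over 13 pairs. Other pairs of arrays from different groups had -0.433 to 0.645, so this check showed no pairing and cannot exclude one. The replicate block gave 7 and 8 calls in the adult and lung comparisons. It ended among others the Spry4 call between the lung groups (-1.03, adjusted p = 0.0519) and the Etv5 interaction (-2.55, adjusted p = 0.0894). The causes of these changes were not tested. With 3 arrays a group, dim genes such as Fgf9 are measured least well.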
